A study of Bos taurus with 11 samples.

Results

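The microRNAs *miR-143* and *miR-145* were followed in mammary biopsies of lactating cows, as the 2 rows of the deposited count table that bear their names (bta-miR-143 and bta-miR-145), out of 796 rows. Small RNA was sequenced from 5 Holstein and 6 Montbéliarde cows, dairy breeds that differ in milk yield, with 1 library per cow. All cows were in mid-lactation and received the same diet, and no treatment of them is described. The study had left out a further Holstein cow because of mastitis. Each biopsy came from 1 rear gland of the udder and is bulk tissue, in which epithelial, myoepithelial, stromal, vascular and blood cells are mixed, so that fewer cells of a type and less RNA per cell cannot be told apart. The study asked which mammary miRNAs differ between the breeds. Libraries are named by breed and a number in the order of the records, which pairs no animals.

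The genes of both miRNAs lie side by side and are generally made from a common primary transcript. They are best known from smooth muscle, where serum response factor and myocardin switch them on and where they favour the contractile state, and they are abundant in other mesenchymal cells and scarce in most epithelia. Among the known targets of *miR-143* is *ELK1*, and it has been linked to the differentiation of adipocytes. The targets of *miR-145* include *KLF4* and *KLF5*, which act against the contractile state of smooth muscle. In the bovine RefSeq annotation, *MIR143* and *MIR145* are neighbours on chromosome 7, with 0 genes starting between them. Both lie within the span of a long noncoding RNA, *LOC132345768*, between the protein-coding genes *IL17B* and *CSNK1A1*. No coordinates are given, because that assembly is not the one the authors used.

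Counts on miRNAs summed to between 6087865 and 16808976 per library, and this sum is the number of counted reads below. A read that matches several miRNAs can enter it more than once. Of the 11 miRNAs listed as epithelial markers, 10 were in the table, and *miR-200c* and *miR-141*, which mark epithelium, averaged 52451 and 310902 normalized read counts in Holstein. Normalized read counts are the raw counts divided by 1 size factor per library, as the authors deposited them. The samples were not identical in their marker levels. The epithelial markers summed to 411090 at the lowest and 511218 at the highest in Holstein, against 214258 and 515816 in Montbéliarde, and the lowest sums were those of Montbéliarde 5 (214258) and Montbéliarde 2 (218658). The sums of Montbéliarde 3 (372996), 6 (339558) and 4 (292655) were also below every Holstein sum, so that the epithelial level largely went with breed. The breed comparisons are also given without Montbéliarde 5 and 2, the lowest.

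*miR-143* was the most abundant miRNA in 11 of 11 libraries. It took 15.9% of the counted reads in Holstein 1, 21.3% in Holstein 2, 18.3% in Holstein 3, 19.4% in Holstein 4 and 18.9% in Holstein 5. In Montbéliarde, its share ranged from 21.9% to 33.6%, with a median of 27.4%. The lowest Montbéliarde share was thus above the highest Holstein share, although narrowly. Counting error is small beside this spread, since the Wilson 95% confidence interval was 21.23 to 21.28% in Holstein 2 and 21.84 to 21.90% in Montbéliarde 1. Such intervals cover counting error only, because PCR copies were not told apart. On average, Holstein cows had a share of 18.7% ± 1.95 (SD, n = 5) and Montbéliarde cows one of 27.7% ± 4.83 (SD, n = 6). The difference of 8.96 percentage points exceeded the spread between cows (two-sided exact permutation test, p = 0.00649, or 0.0195 after Benjamini-Hochberg adjustment over the 3 values compared this way, where the smallest possible p is 0.00216). Of the 550 miRNAs tested across the table, 0.545% had shares that did not overlap and were higher in Montbéliarde, and 1.64% had shares that did not overlap in either direction. Without Montbéliarde 2 and 5, the difference was 6.24 percentage points (exact permutation test, p = 0.00794).

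The distance to the next miRNA also varied. In Holstein, *miR-143* had between 1.35 and 1.97 times the count of the second most abundant miRNA, and in Montbéliarde between 1.97 and 4.18 times. The second place was held by *miR-148a* in 5 libraries, by *miR-30a-5p* in 3, by *miR-10b* in 2 and by *miR-26a* in 1. The place of *miR-26a* may rest on reads entered more than once, as it averaged 576239 normalized read counts in Holstein against 288116 for *miR-26c*. This was not tested.

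*miR-145* was far less abundant. Its share of the counted reads was 0.0299% to 0.0469% in the Holstein libraries and 0.0158% to 0.0496% in the Montbéliarde ones, which put it at ranks 72 to 81 and 73 to 101, respectively. The smallest share that 3 counts could show was at most 4.93e-05%, so that these values are well above the limit of detection. Holstein cows averaged 0.0396% ± 0.00715 (SD, n = 5) and Montbéliarde cows 0.0332% ± 0.0127 (SD, n = 6), which did not exceed the spread between cows (two-sided exact permutation test, p = 0.340). As *miR-143* took more of the reads in Montbéliarde, the share of *miR-145* was also taken among the reads that were not *miR-143*. It then averaged 0.0489% ± 0.00935 (SD, n = 5) and 0.0465% ± 0.0184 (SD, n = 6), and the breeds were again not distinguishable (exact permutation test, p = 0.801).

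On the normalized scale, *miR-143* had 1501983 read counts in Holstein 1, 2290272 in Holstein 2, 1858540 in Holstein 3, 1713461 in Holstein 4 and 1827471 in Holstein 5. The Montbéliarde libraries lay between 1916154 and 3838094, with a median of 2712074, and 4 of the 6 were above every Holstein library. The breeds overlapped through Montbéliarde 6 (1916154) and Montbéliarde 1 (2218843). The normalized read counts of *miR-145* in Holstein 1 to 5 were 3268, 4785, 4761, 3757 and 2899. In Montbéliarde they lay between 1600 and 4470, with a median of 3363, and 3 of the 6 libraries were inside the Holstein range. None of the Montbéliarde libraries exceeded that range, and Montbéliarde 1 had the lowest count of all, 1600.

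**Figure D1:**
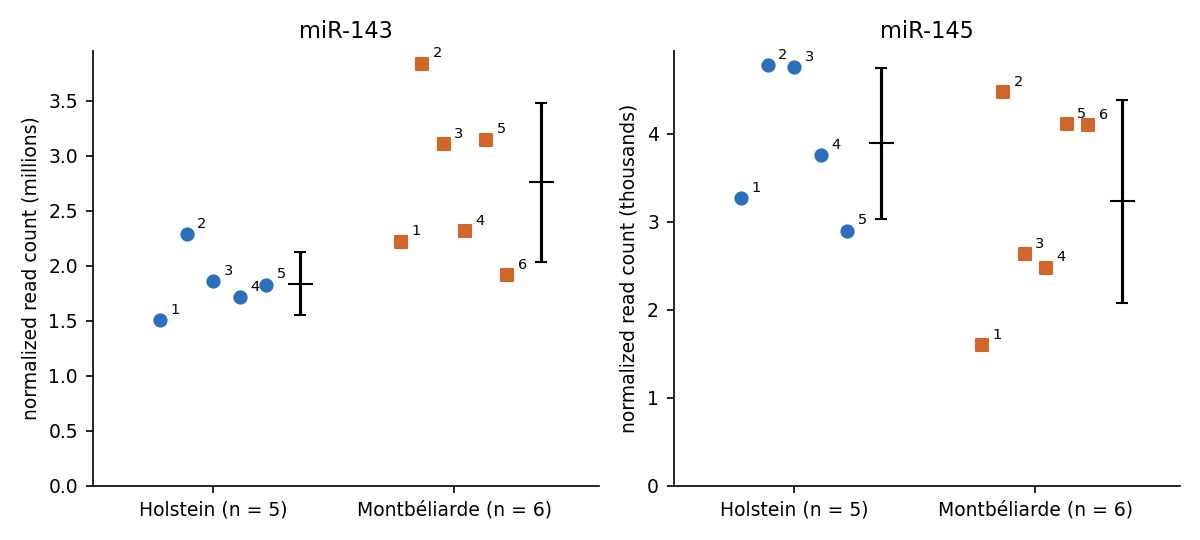
Normalized read counts of *miR-143* (left) and *miR-145* (right), on separate linear axes, in the 5 Holstein and 6 Montbéliarde libraries, each point 1 cow with its number, and the bars the mean ± SD. *miR-143* reached 3838094 in Montbéliarde 2, whereas *miR-145* was at most 4785 in any library and overlapped between the breeds.

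In the comparison of the breeds across the table, *miR-143* had a mean of 1838345 ± 288747 normalized read counts in the Holstein cows (SD, n = 5) and of 2757166 ± 726052 in the Montbéliarde cows (SD, n = 6). The log2FC (Montbéliarde over Holstein) was 0.58 (standard error 0.18, 95% confidence interval 0.19 to 0.97). It did not pass the limit of 0.05, with an unadjusted p of 0.00682 and a Benjamini-Hochberg adjusted p of 0.171 in edgeR (quasi-likelihood test), place 22 of 550 in the order of p. For *miR-145*, the Holstein mean was 3894 ± 858 (SD, n = 5) and the Montbéliarde mean 3231 ± 1153 (SD, n = 6). The log2FC was -0.27 (standard error 0.25, 95% confidence interval -0.81 to 0.26), with an edgeR adjusted p of 0.649, and the interval leaves room for a decrease as well as for a small increase. Neither miRNA was therefore called by edgeR, where 0.364% of the 550 miRNAs were, and neither was by DESeq2, with adjusted p-values of 0.0813 and 0.677 against 4.24% called, or by limma-voom, with 0.208 and 0.582 against 0.364% called. At an unadjusted p of at most 0.05, edgeR gave 1 of the 2, *miR-143*, where 14.2% of all tested miRNAs passed, 7.64% as higher in Montbéliarde and 6.55% as higher in Holstein.

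These estimates moved with the level of the epithelial markers. Without Montbéliarde 2 and 5, the log2FC was 0.44 for *miR-143* and -0.46 for *miR-145* (edgeR, adjusted p of 0.253 and 0.417). With the summed epithelial level as a covariate, it was 0.27 (standard error 0.20) and -0.91 (standard error 0.26, 95% confidence interval -1.47 to -0.35). The edgeR unadjusted p-values were 0.188 and 0.00340, and the adjusted ones 0.762 and 0.370. The largest part of this sum was *miR-141*, with a mean of 310902 normalized read counts in Holstein and 188093 in Montbéliarde. It had the most negative log2FC of the markers (-0.74), whereas *miR-205* (0.38) and *miR-182* (0.05) had positive ones. Both alternatives were chosen after seeing the data, and neither separates the epithelial level from breed.

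The difference between the miRNAs can be read within each library, where scaling has no effect. The count of *miR-143* was 460 times that of *miR-145* in Holstein 1, 479 times in Holstein 2, 390 times in Holstein 3, 456 times in Holstein 4 and 630 times in Holstein 5. In Montbéliarde the ratio lay between 468 and 1387, with a median of 896, and 5 of the 6 libraries were above the highest Holstein ratio. The exception was Montbéliarde 6, at 468. Adaptor ligation and PCR act differently on different sequences, so that these are ratios of reads and not of molecules. Only their change between libraries is tested.

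The log2 ratio averaged 8.90 ± 0.25 in the Holstein cows (SD, n = 5) and 9.78 ± 0.55 in the Montbéliarde cows (SD, n = 6). The difference of 0.89, or 1.85-fold, exceeded the spread between cows (two-sided exact permutation test, p = 0.0130, or 0.0195 after Benjamini-Hochberg adjustment over the 3 values compared). This is the test of whether the breed difference of the 2 miRNAs is unequal. It was 0.95 without Montbéliarde 2 and 5 (exact permutation test, p = 0.0317). When medians were compared in place of means, the difference was 0.96 and the p-value was just above the limit (exact permutation test, p = 0.0519).

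**Figure D2:**
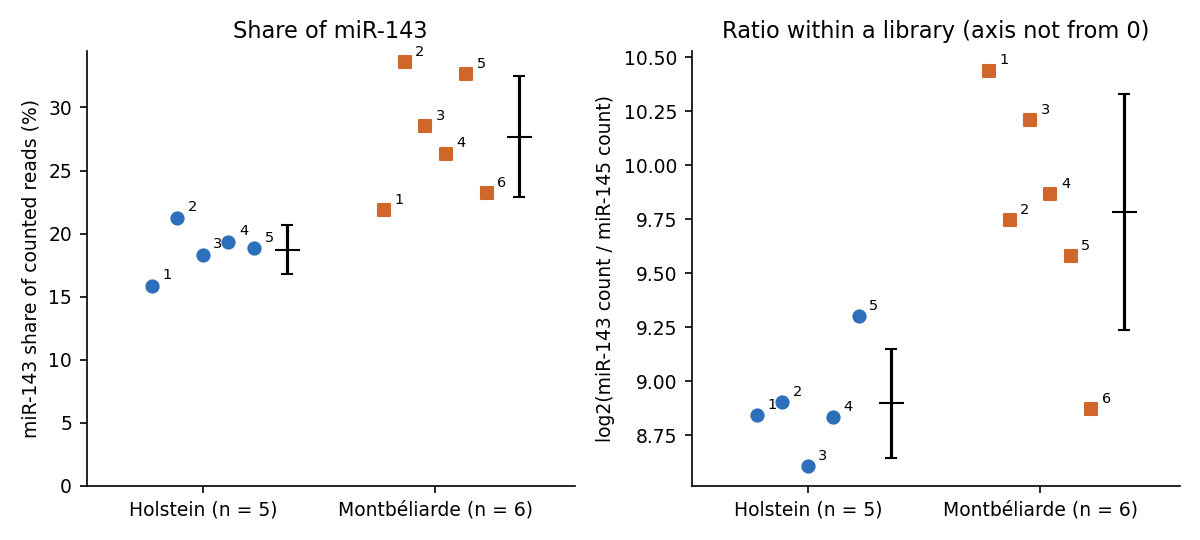
Share of *miR-143* among the counted reads in percent (left) and log2 of the ratio of the *miR-143* count to the *miR-145* count (right) in each library, with the mean ± SD of each breed. All 6 Montbéliarde shares were above the highest Holstein share of 21.3%, and 5 of the 6 Montbéliarde ratios were above the highest Holstein ratio.

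Depth moved with 1 of the members. The log2 level of *miR-145* (TMM-scaled CPM) rose with the log2 number of counted reads, with Pearson's r = 0.83 (permutation p = 0.00140, adjusted 0.00976) and Spearman's rho = 0.76 (permutation p = 0.00852, adjusted 0.0273) over the 11 libraries. Without Holstein 3 and Montbéliarde 1, the libraries farthest from the median depth, r was 0.70. Within Montbéliarde alone, r was 0.92 (exact permutation p = 0.00694, adjusted 0.0273, n = 6). No value was computed within Holstein, since correlations were taken over at least 6 libraries. Among the 214 miRNAs with a mean normalized read count of at least 100, whose median r with depth was 0.085, only *miR-152* and *miR-148c*, whose counts differed by at most 1 read in any library, had a higher r than *miR-145*. The corresponding r of *miR-143* was -0.26 (permutation p = 0.447, adjusted 0.595), and it was 0.20 within Montbéliarde (exact permutation p = 0.690). The ratio of the 2 miRNAs followed depth in the opposite direction, with r = -0.82 (permutation p = 0.00183, adjusted 0.00976) and rho = -0.86 (permutation p = 0.00132, adjusted 0.00976), and r = -0.67 without Holstein 3 and Montbéliarde 1. Within Montbéliarde, r was -0.84 (exact permutation p = 0.0347, adjusted 0.0694). In all, 4 relations were computed over both sets of libraries, and p-values were adjusted over 16 coefficients.

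Holstein libraries held 7431936 to 16808976 counted reads and Montbéliarde libraries 6087865 to 11395785. By the study's own averages, Montbéliarde libraries also lost more reads as too short or as adaptor, and kept a smaller part after cleaning. Such library differences and breed cannot be told apart here. With log2 depth as a covariate, an alternative added for the ratio once its values were known, the breed difference of the log2 ratio was 0.54 (permutation test over all splits of the breeds, p = 0.0411), against 0.89 without it. Such splits do not keep the relation of breed to depth, so that this p-value is approximate. In edgeR, the same covariate gave a log2FC of 0.62 for *miR-143* (adjusted p = 0.176) and of 0.05 for *miR-145* (adjusted p = 0.940), so that the small negative value of *miR-145* changed its sign.

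**Figure D3:**
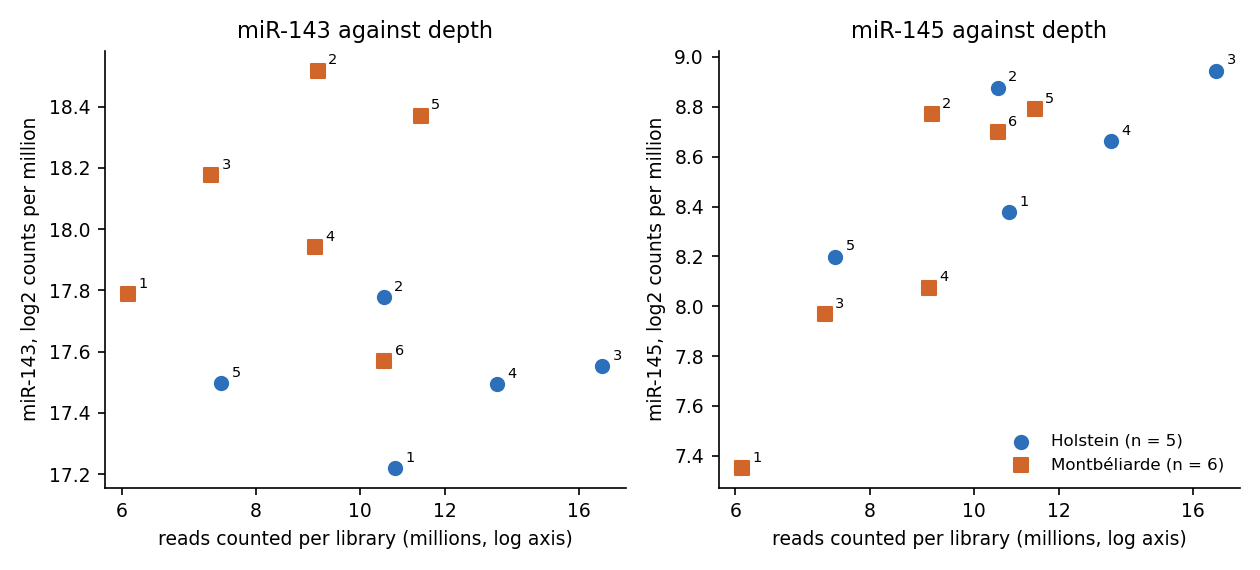
Log2 CPM (TMM-scaled) of *miR-143* (left) and *miR-145* (right) against the reads counted in each library (log axis), each point 1 cow with its number. *miR-145* was lowest in the library with the fewest reads, Montbéliarde 1, and highest in the one with the most, Holstein 3, with r = 0.83, whereas *miR-143* had r = -0.26.

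Across the 11 libraries, no relation between the levels of *miR-143* and *miR-145* passed the test. Pearson's r of the log2 levels was 0.0365 (permutation p = 0.917, adjusted 0.978) and Spearman's rho -0.00909 (permutation p = 0.990, adjusted 0.990). Without Montbéliarde 2 and 5, the libraries farthest from the median of *miR-143*, r was -0.41. Within Montbéliarde, r was 0.40 (exact permutation p = 0.403, adjusted 0.586, n = 6). With each level centred on its breed mean, r over the 11 libraries was 0.44 (permutation p = 0.170). A p-value above the limit does not show that the miRNAs are unrelated, and with 11 libraries only strong relations are detectable. On this scale, Montbéliarde 1, 3 and 4 had a higher *miR-143* and a lower *miR-145* than every Holstein library, whereas Montbéliarde 2 and 5 had the highest *miR-143* and a *miR-145* inside the Holstein range.

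**Figure D4:**
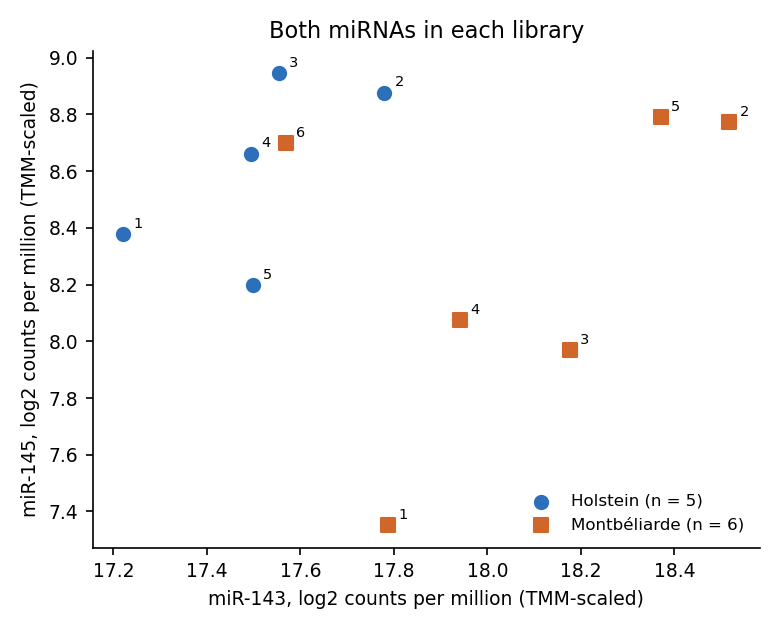
Log2 CPM (TMM-scaled) of *miR-145* against *miR-143*, each point 1 library with its number. The points form no common line (r = 0.0365), and Montbéliarde 1, 3 and 4 lie below all Holstein libraries for *miR-145*.

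Other miRNA genes that are neighbours in the RefSeq annotation give a frame for these values. Of the pairs of adjacent miRNA genes at most 10000 bases apart, each with a single gene copy and a mean of at least 100 normalized read counts, 36 had distinct counts, and 5 were left out because the standard deviation of their log2 ratio was below 0.05, as when reads are shared. The median r of the 35 other pairs was 0.53, with a range from -0.46 to 0.99, and 7 of them had an r at or below that of *miR-143* and *miR-145*. Close pairs were *miR-200a* with *miR-200b* (r = 0.94), both of the epithelial *miR-200* family, and *miR-222* with *miR-221* (r = 0.93). The standard deviation of the log2 ratio over the libraries was 0.62 for *miR-143* with *miR-145*, against a median of 0.38, and was exceeded in 2 of the 35. In size, the breed difference of the log2 ratio was larger in 0 of the 35 other pairs, whose median was 0.21, and the nearest was *miR-18a* with *miR-19a* of the *miR-17-92* cluster, at 0.86. The reads were also divided most unequally, with a mean log2 ratio of 9.38 against at most 9.14 in size among the others (*miR-127* with *miR-432*). Such sizes are ratios of reads and not of molecules, since adaptor ligation and PCR act differently on different sequences. These pairs overlap in their miRNAs and come from the same libraries, so that they serve as a description. The comparison was added after the values of the members were known.

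**Figure D5:**
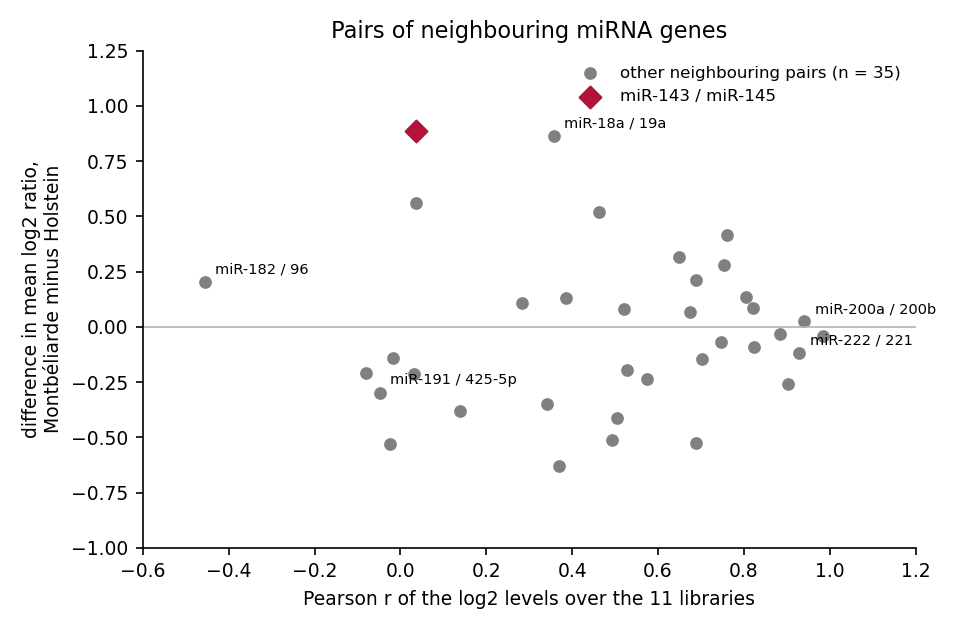
For 36 pairs of neighbouring miRNA genes, Pearson's r of the log2 levels over the 11 libraries against the difference in mean log2 ratio between the breeds (Montbéliarde minus Holstein). The pair *miR-143* and *miR-145* (diamond) combines an r of 0.0365 with a difference of 0.89, and *miR-18a* with *miR-19a* comes next at 0.86.

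The miRNAs whose levels were most like each member were taken from the same set of 214, by Pearson's r over the 11 libraries. For *miR-143* these were *miR-100* (r = 0.94), *miR-1271* (r = 0.92), *miR-99b* (r = 0.88), *miR-28* (r = 0.87) and *miR-130a* (r = 0.86). *miR-100* and *miR-99b* are relatives whose family is known to act on *MTOR*. The log2FC of these miRNAs was between 0.33 and 1.11, all higher in Montbéliarde in sign. By edgeR's adjusted p, 0 of the 5 were called, and 0 by limma-voom. In edgeR, 4 had an unadjusted p of at most 0.05, where 14.2% of all tested miRNAs did. DESeq2 called 2 of them, *miR-100* and *miR-1271*, each with an adjusted p of 0.0453, where it called 4.24% of all. The 5 were picked by likeness to *miR-143* over the same libraries, so that their signs and p-values follow in part from its own values. For *miR-145* the most alike were *miR-424-5p* (r = 0.91), *miR-369-3p* (r = 0.84), *miR-148b* (r = 0.80) and the near-identical *miR-148c* and *miR-152* (r = 0.78 each). *miR-424-5p* shares its seed with *miR-15* and *miR-16*, and *miR-369-3p* belongs to the imprinted *DLK1-DIO3* region. Their log2FC was between -0.27 and 0.09. These 5 were likewise picked by likeness over the same libraries. Of them, *miR-148c* and *miR-152* were the only miRNAs of the 214 that followed depth more closely than *miR-145*. What part depth had in these likenesses was not tested. No miRNA was in both lists, and in the order of likeness to *miR-143*, *miR-145* stood at place 104 of 213. Within Montbéliarde alone, the r of the listed miRNAs was between 0.80 and 0.92 for *miR-143* and between 0.77 and 0.94 for *miR-145*.

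Markers of the cell types in the biopsy are given beside these values for the whole lists. Of these markers, edgeR, DESeq2 and limma-voom each called 0, where they called 0.364%, 4.24% and 0.364% of all miRNAs tested, respectively. Of the 10 epithelial markers tested, 0 were called, and 8 had a negative and 2 a positive log2FC, with a median of -0.17 against 0.03 over all 550 miRNAs. *miR-141* (log2FC -0.74, standard error 0.26) and *miR-200c* (log2FC -0.61, standard error 0.27), which are made from a common transcript and hold epithelial cells in their state, passed the unadjusted limit as higher in Holstein (background 6.55%), with edgeR adjusted p-values of 0.217 and 0.322. The libraries with the lowest epithelial sums, Montbéliarde 5 and 2, had the highest shares of *miR-143*, 32.7% and 33.6%. Montbéliarde 1, with the lowest *miR-145*, had the highest epithelial sum, 515816, and a *miR-143* share of 21.9%, above every Holstein share. Holstein 2 had a similar epithelial sum, 511218, but the highest *miR-145* of all, 4785 normalized read counts. Its *miR-143* share of 21.3% was the highest in Holstein. What part the epithelial level had in either member was not tested beyond the covariate given above.

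The stromal markers, of which *miR-199a-3p* and *miR-214* are typical of fibroblasts, summed to 9800 to 13138 normalized read counts in the Holstein libraries and to 9814 to 29480 in the Montbéliarde ones, where Montbéliarde 2 was the highest. Of the 5 tested, 0 were called, where edgeR called 0.364% of all miRNAs. A positive log2FC was found for 4, and the median of the 5 was 0.54, against 0.03 over all miRNAs. At an unadjusted p of at most 0.05, edgeR gave 1 of the 5, where 7.64% of all tested miRNAs passed as higher in Montbéliarde. *miR-152*, whose counts could not be told from those of *miR-148c*, is 1 of the stromal markers. *miR-199a-3p* had an unadjusted p of 0.0191 and a log2FC of 0.67 (standard error 0.26, edgeR adjusted p = 0.246). The endothelial *miR-126-5p* and *miR-126-3p* had a log2FC of -0.06 and -0.11, and their sum ranged from 251466 to 330168 in the Holstein and from 239684 to 297167 in the Montbéliarde libraries. The leukocyte markers ranged from 18031 to 26952 in the Holstein and from 17229 to 39422 in the Montbéliarde libraries. All 5 had a positive log2FC (median 0.40), and 0 were called. At an unadjusted p of at most 0.05, edgeR gave 0 of the 5, where 14.2% of all tested miRNAs passed. For the erythroid markers, the sums ranged from 23603 to 39552 and from 23429 to 57421, with 0 of 3 called. The markers of striated muscle summed to between 519 and 1849 in the 11 libraries, most of it *miR-133a*, and *miR-208b* had fewer than 10 counts over all libraries. The part of these cell types in the values of *miR-143* and *miR-145* was not tested.

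Other miRNAs known to act on the state of smooth muscle were described in the same way. Of the 11 listed, 10 were tested, and 0 were called by edgeR's quasi-likelihood test, which called 0.364% of all miRNAs. Of the 10, 7 had a positive and 3 a negative log2FC (median 0.24, against 0.03 over all miRNAs). At an unadjusted p of at most 0.05, edgeR gave 1 of the 10, where 7.64% of all tested miRNAs passed as higher in Montbéliarde. *miR-221*, which favours proliferation of smooth muscle, had an unadjusted p of 0.0301, with 1476 ± 66.9 (SD, n = 5) normalized read counts in Holstein and 2307 ± 1197 (SD, n = 6) in Montbéliarde (log2FC 0.63, standard error 0.26, edgeR adjusted p = 0.309). *miR-21-5p*, which is abundant in activated stroma, had a log2FC of -0.01 (standard error 0.22). *miR-133a*, a muscle miRNA, had one of 0.09 (standard error 0.33).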

How the data were processed

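Small RNA libraries of mammary biopsies from 5 Holstein and 6 Montbéliarde cows were grouped by the breed given in the sample records. Per the methods, after adaptor trimming the authors discarded reads with undetermined bases or outside the length range of small RNAs. Known and predicted miRNAs were quantified by ncPRO-seq and miRDeep2, with miRBase and a bovine assembly as references. The authors deposited raw counts per mature miRNA and library, and a signal, the normalized read counts, which are the counts divided by DESeq2 size factors (version 1.18.1 per the submitters' processing notes). How reads that match several miRNAs were counted is not given in the sources used here. Some rows had equal mean counts, such as *let-7b* and *miR-3596* (43839 normalized read counts each in Holstein). In both breeds, the mean sum of counts (11795354 in Holstein, 8916419 in Montbéliarde) exceeded the mean of cleaned reads that the study reports. Some reads were therefore entered in more than 1 row, and the shares are shares of this sum. The authors' means, fold changes and p-values were not used.

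Counts of the 550 miRNAs with at least 10 counts over the 11 libraries were compared between breeds with edgeR 4.0.16 (TMM, glmQLFit with robust fitting, glmQLFTest) in R 4.3.3, with Benjamini-Hochberg adjustment and a limit of 0.05. DESeq2 1.42.0, which the authors used in another version, and limma 3.58.1 were alternatives. Single values were compared with exact permutation tests over all 462 splits into 5 and 6, and correlations with 100000 permutations, or all of them for 6 libraries. Each fit was tested on simulated counts. Depth ranged from 6087865 to 16808976 counted reads.

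The members, lists and tests were chosen with earlier results of these data known. Named were both members, members of the lists with an unadjusted p of at most 0.05, and the 5 most alike miRNAs of each member. *miR-21-5p*, *miR-133a* and the further miRNAs named from neighbouring pairs were added after their values were seen. Neighbours were taken from the RefSeq annotation of another assembly. P-values set a difference between breeds, or a correlation, against the variation between cows, with 1 library each.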

Additional observations from a re-analysis of the deposited data

How the results depend on the processing

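The log2FC of *miR-143* stayed positive and uncalled under all alternatives, between 0.55 and 0.72 with each library left out in turn. That of *miR-145* stayed uncalled, between -0.37 and -0.14 with each library left out (-0.14 without Montbéliarde 1 or without Holstein 2). The value turned to 0.0478 with library total as a covariate and to -0.91 with the epithelial covariate (edgeR, unadjusted p = 0.00340, adjusted p = 0.370). The number of miRNAs called in the whole table, 2, was 21 with DESeq2's Wald test, 1 with library totals, and 0 with DESeq2's size factors in edgeR, with scaling to *miR-26a*, *miR-92a* and *miR-191* and with the epithelial covariate (edgeR, with 82, 67 and 41 miRNAs passing 0.05 unadjusted, respectively). It was between 0 and 6 with each library left out, the highest without Montbéliarde 6. The difference in the share of *miR-143* was between 7.78 and 10.1 percentage points with each library left out and in that of *miR-145* between -0.00966 and -0.00290, on the same side of the limit each time. The breed difference of the log2 ratio lay between 0.76 (without Montbéliarde 1) and 1.07 (without Montbéliarde 6), with exact permutation p-values of 0.00794 to 0.0333, and missed the limit only as a difference of medians, 0.96 (p = 0.0519). The correlation of the 2 miRNAs lay between -0.124 and 0.143 with each library left out, and was -0.0433 with library totals, 0.40 within Montbéliarde and 0.44 when centred on the breed means, none past the limit. With library total as a covariate the ratio difference was 0.54, so that its size depends on how depth is handled. The other causes were not tested.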
